A study of Mus musculus with 27 samples.

Results

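The 9 genes described here encode the parts that hold a basal keratinocyte to its basement membrane, namely the integrin chains Itga3, Itga6, Itgb1 and Itgb4, the transmembrane collagen Col17a1, the plakins Dst and Plec, and the laminin chains Lama3 and Lamb3. They were chosen by symbol, as 9 of the 51906 rows of the RNA-seq count table and 9 of the 32285 gene rows of each single-cell matrix, and all 9 were found in each. Cd151 and Col7a1, which were not among them, were followed beside them.

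The study grew mouse hair follicle stem cells (HFSCs) as colonies in drops of basement membrane extract and asked how retinoic acid shapes their lineage choices. Bulk RNA-seq covered 4 groups of 2 libraries each, from mice of postnatal day 55 in the resting phase of the hair cycle. Wild-type HFSCs and HFSCs of the genotype Sox9-CreER;Rxra-fl/fl;R26-YFP (labelled Rxra cKO, where the Sox9 promoter drives a tamoxifen-inducible Cre and YFP reports recombination) were each kept in serum medium (FBS) or moved to serum-free medium with all-trans retinoic acid and the protein kinase C inhibitor Go6976 (atRA+PKCi). The labels give the same mouse numbers for both media within a genotype, and every medium held the inhibitor Y-27632. Because the atRA+PKCi medium also replaced serum by the B-27 supplement, a difference between media covers all of these changes together. Single-cell RNA-seq covered skin of 2 mice at about postnatal day 32, in full hair growth (anagen VI), sorted against CD45, CD31, CD140a and CD117, and HFSCs cultured from the same mice under 7 hashtagged conditions. The HFSC lines had been established on feeder cells.

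Hemidesmosomes are rivets of the basal cell. The integrin α6β4, encoded by Itga6 and Itgb4, and collagen XVII span the membrane, while plectin (Plec) and the epithelial form of dystonin (Dst, known as BP230) tie them to keratin filaments inside. On the outside they bind laminin-332, a trimer that keratinocytes secrete themselves and that holds the chains encoded by Lama3 and Lamb3, and the integrin α3β1, encoded by Itga3 and Itgb1, binds the same laminin but connects to actin. Inherited loss of these parts blisters the skin, and Col17a1 is also known for keeping HFSCs in their niche.

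In GRCm38, with GENCODE annotation, all members are protein-coding genes. Itga3 (chr11:95044474-95076801) and Itgb4 (chr11:115974709-116008412) lie on chromosome 11, Lamb3 (chr1:193207699-193343878) and Dst (chr1:33908225-34308661) on chromosome 1, Itga6 at chr2:71745616-71858416, Itgb1 at chr8:128685654-128733200, Plec at chr15:76170974-76232574 and Col17a1 at chr19:47646344-47692094. Promoter sequence from RefSeq (GRCm38.p6, 250 bases before to 50 bases after a gene's start) was at hand for 5 of the 9 members, Itga3, Itgb1, Col17a1, Lamb3 and Dst, over 8 starts, and not for Itga6, Itgb4, Lama3 and Plec. Those printed are of Itgb1, which among the integrin chains of the 9 members had the largest difference between media in wild-type cells, of Lamb3, which had the larger difference of both laminin members, and of Col17a1, a member with a small one, printed on the strand of the gene. Capitals mark matches to a GC box (GGGCGG) or a TATA box (TATAAA) searched on both strands.

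Itgb1, chr8:128685404-128685703, plus strand: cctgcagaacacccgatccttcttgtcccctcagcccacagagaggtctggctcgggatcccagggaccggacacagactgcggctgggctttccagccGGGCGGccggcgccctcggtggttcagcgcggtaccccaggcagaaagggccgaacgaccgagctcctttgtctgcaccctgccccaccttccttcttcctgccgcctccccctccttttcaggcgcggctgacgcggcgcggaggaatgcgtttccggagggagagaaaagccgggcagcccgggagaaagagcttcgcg
Lamb3, chr1:193301744-193302043, plus strand: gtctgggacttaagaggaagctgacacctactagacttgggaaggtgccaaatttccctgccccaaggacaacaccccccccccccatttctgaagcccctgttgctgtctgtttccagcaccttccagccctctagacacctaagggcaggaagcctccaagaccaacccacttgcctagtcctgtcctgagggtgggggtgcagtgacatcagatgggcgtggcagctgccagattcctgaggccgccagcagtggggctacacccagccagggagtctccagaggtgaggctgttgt
Col17a1, chr19:47691993-47692292, minus strand: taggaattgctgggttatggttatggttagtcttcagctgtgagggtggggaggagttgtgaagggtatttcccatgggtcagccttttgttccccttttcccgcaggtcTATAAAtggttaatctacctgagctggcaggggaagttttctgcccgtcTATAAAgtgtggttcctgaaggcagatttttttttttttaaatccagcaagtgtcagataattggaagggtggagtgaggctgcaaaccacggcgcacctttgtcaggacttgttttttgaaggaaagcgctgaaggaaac

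The Itgb1 window held 27 CpG pairs, more than 84.5% of the 32851 promoter windows, and 1 GC box, a motif that 35.66% of all windows held. The printed Lamb3 window held 2 CpG pairs and none of the 4 motifs searched. A window at another Lamb3 start, not printed, held 5 CpG pairs and none of the motifs either. The Col17a1 window held 5 CpG pairs and 2 TATA boxes, a motif found in 13.62% of all windows. The other motifs were the AP-1 site (TGANTCA, in 7.81% of all windows), found only at the second start of Itga3 among the members, and the nuclear receptor half-site (AGGTCA, in 16.26% of all windows), found in none of the 8 windows of members. These matches describe letters only.

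The 8 bulk libraries held 25150265 to 35879777 estimated counts, and 15965 genes passed the filter on low counts, all 9 members among them. Values are CPM, counts relative to a library's total count, with edgeR's TMM scaling. Rxra itself was at 149 and 122 CPM in FBS and 147 and 143 CPM in atRA+PKCi for wild-type cells, against 97.2 and 95.7 CPM in FBS and 148 and 145 CPM in atRA+PKCi for cells labelled Rxra cKO. Its count over the whole gene includes exons outside the deleted part and so does not check the genotype labels. Markers of fibroblasts, the kind of cell a feeder layer or dermis would add, summed to 1.32 to 11.6 CPM over 6 genes, with 1 or 2 of the 6 at 0 in each library. The basal keratins Krt5 and Krt14 summed to at least 14980 CPM in each. In bulk libraries fewer cells of a type and less RNA per cell cannot be told apart.

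Per kilobase of exon, the members stood in a wide order in wild-type FBS. Itgb1 was highest at 527 CPM per kilobase, followed by Col17a1 at 381, Itga6 at 150, Lamb3 at 149, Lama3 at 123, Itga3 at 117, Itgb4 at 91.6, Plec at 20.3 and Dst at 10.8. Counts of Dst, Plec and Itga6 sum isoforms, of which only some belong to hemidesmosomes. The length used was that of all annotated exons of a gene together, 41.2 kilobases for Dst and 18.1 for Plec. It can exceed the length of the transcripts present, so the order, and the low places of Dst and Plec in it, depend on this choice.

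**Figure D1:**
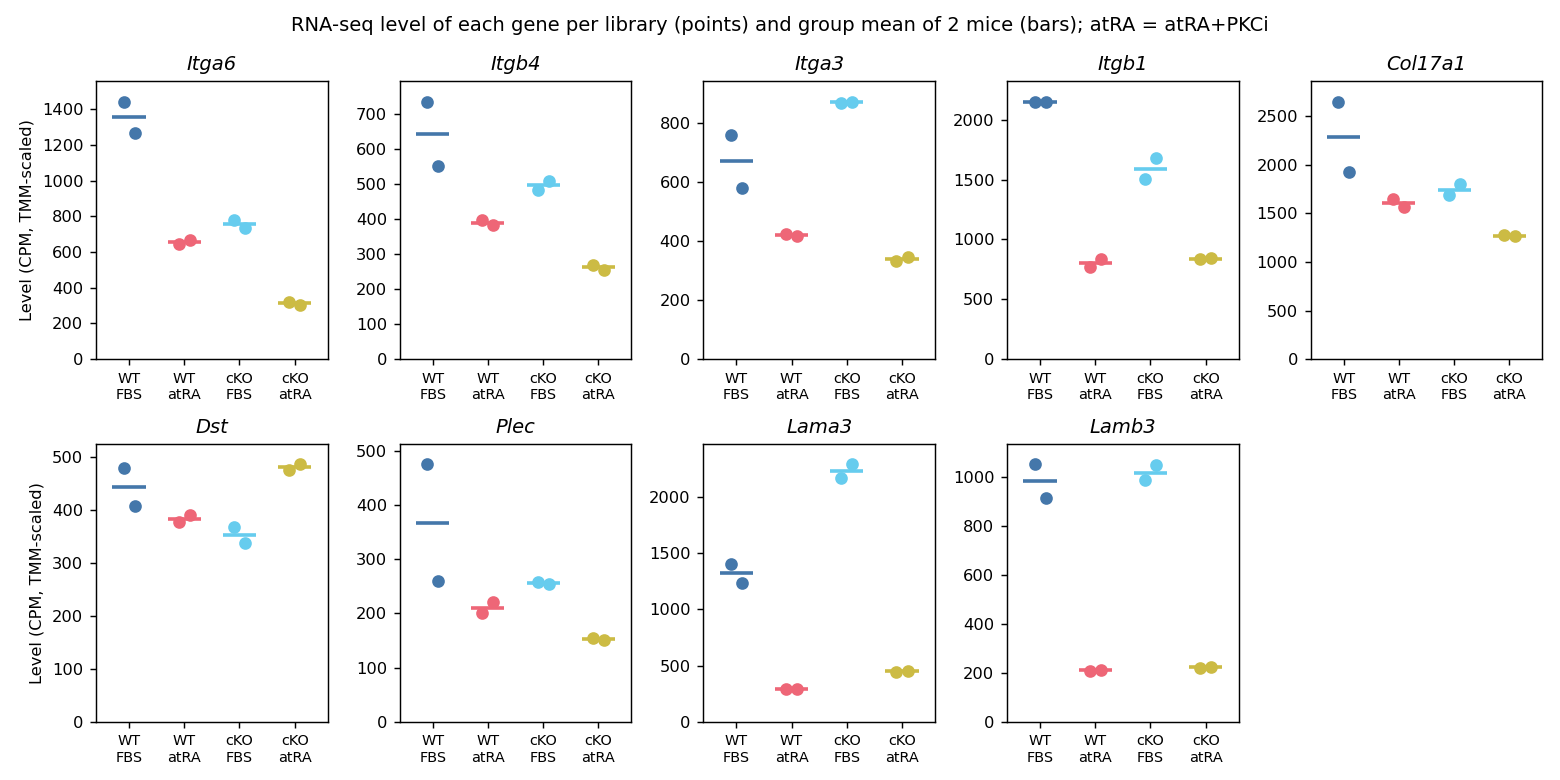
CPM (TMM scaled, linear axes from 0) of the 9 members in the 8 bulk RNA-seq libraries, 1 panel per gene, with a point for each library and a bar at each group mean. Lama3 and Lamb3 lie at 453 CPM or less in every atRA+PKCi library, while Dst lies between 338 and 487 CPM in all 8 libraries.

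The first comparison asked how the change of medium moved these genes in wild-type HFSCs. In atRA+PKCi 8 of the 9 members were lower than in FBS at an adjusted p under 0.05 (edgeR's quasi-likelihood test), against 26.6% of all genes tested, and none was higher, against 27.2%. The median log2 fold change was -0.80 over the members and 0.03 over all genes. The laminin chains fell most, the integrin chains less, and Dst did not pass the test by edgeR. DESeq2 called all 9 members lower, and 4039 genes lower in all, against 4249 by edgeR. With scaling by total counts the median of all genes moved to 0.27 and the higher genes from 50.6% to 69.7% of calls. In that fit 2786 of all genes were lower and 6395 higher, against 4249 and 4350 with TMM. Then 6 members were lower, without Col17a1 (log2 -0.27, adjusted p = 0.13 by edgeR) and Plec (-0.57, adjusted p = 0.0581).

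Itgb1, the common β chain of the matrix-binding integrins, was at 2148 and 2153 CPM in FBS and at 771 and 837 CPM in atRA+PKCi. It fell by 1.42 on the log2 scale (SE 0.08, adjusted p = 1.74e-06 by edgeR). This was the largest fall among the 4 integrin chains, and the groups did not overlap. Itga6 was at 1444 and 1270 CPM in FBS and at 643 and 665 CPM in atRA+PKCi, a fall by 1.05 (SE 0.08, adjusted p = 1.17e-05 by edgeR). Itgb4, whose long cytoplasmic tail binds plectin, was at 734 and 550 CPM in FBS and at 396 and 383 CPM in atRA+PKCi, a fall by 0.72 (SE 0.12, adjusted p = 0.00109 by edgeR). Itga3 was at 759 and 580 CPM in FBS and at 424 and 418 CPM in atRA+PKCi, a fall by 0.67 (SE 0.11, adjusted p = 0.00116 by edgeR). Both partners of each laminin-binding pair were thus lower in both atRA+PKCi libraries than in both FBS libraries. Of 13 other integrin chains tested, 11 also did not overlap between media, in either direction. The share of all genes without overlap is not given here, so this does not set the members apart. The tetraspanin Cd151, which associates with these integrins, was at 177 and 198 CPM in FBS and at 184 and 183 CPM in atRA+PKCi, with overlapping groups (log2 -0.03, adjusted p = 0.784 by edgeR).

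Lamb3 and Lama3 moved together and further than any other member. Lamb3 was at 1053 and 916 CPM in FBS and at 209 and 212 CPM in atRA+PKCi, 4.68-fold lower (log2 -2.23, SE 0.09, adjusted p = 1.30e-07 by edgeR). Lama3 was at 1406 and 1232 CPM in FBS and at 291 and 295 CPM in atRA+PKCi, a slightly smaller fall (log2 -2.17, SE 0.09, adjusted p = 1.54e-07 by edgeR). For both chains the atRA+PKCi libraries lay far below the FBS libraries, and the replicates of each group lay close together. Col7a1, the collagen of the anchoring fibrils that fasten laminin-332 to the dermis, was at 413 and 267 CPM in FBS and at 77.4 and 84.5 CPM in atRA+PKCi (log2 -2.07, adjusted p = 1.54e-05 by edgeR).

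Col17a1 and Dst moved least among the members, and Plec had the widest error. Col17a1 was at 2652 and 1929 CPM in FBS and at 1654 and 1570 CPM in atRA+PKCi, a fall by 0.51 (SE 0.13, adjusted p = 0.0113 by edgeR). Plec was at 475 and 259 CPM in FBS, replicates that lay far apart for their level, and at 200 and 221 CPM in atRA+PKCi, a fall by 0.80 (SE 0.22, adjusted p = 0.0145 by edgeR). Dst was at 480 and 408 CPM in FBS and at 378 and 390 CPM in atRA+PKCi (log2 -0.21, SE 0.09, adjusted p = 0.0824 by edgeR). The Dst groups did not overlap, yet the difference missed the test. It passed with DESeq2 (log2 -0.23, adjusted p = 0.0264) and by edgeR without a filter on low counts (-0.23, adjusted p = 0.0387), and its sign turned to 0.03 with scaling by total counts. Without wild-type FBS replicate 2, Dst passed the test (log2 -0.33, adjusted p = 0.0101), while Plec missed it without wild-type atRA+PKCi replicate 1 (-0.75, adjusted p = 0.059) and Col17a1 without wild-type atRA+PKCi replicate 2 (-0.47, adjusted p = 0.0588).

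Keratin genes and other keratinocyte markers moved with the medium as well. Markers of suprabasal epidermis summed to 5878 and 6289 CPM over 6 genes in wild-type cells in FBS and to 377 and 382 CPM after the change, and Krt5 and Krt14 together to 32857 and 34301 CPM against 14980 and 15121 CPM. Their part in the fall of the members was not tested.

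In Rxra cKO HFSCs the same change of medium lowered 8 of the 9 members, against 22.2% of all genes tested, and raised 1, Dst, against 20.8%. The median log2 fold change was -0.92 over the members and 0.02 over all genes. Lama3 went from 2167 and 2289 CPM in FBS to 441 and 453 CPM in atRA+PKCi, 4.98-fold lower (log2 -2.32, SE 0.09, adjusted p = 4.13e-07 by edgeR). Lamb3 went from 989 and 1049 CPM to 220 and 224 CPM, 4.59-fold lower (log2 -2.20, SE 0.09, adjusted p = 5.11e-07 by edgeR). As in wild-type cells the laminin chains fell most.

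Among the integrin chains of Rxra cKO cells, Itga3 fell from 869 and 872 CPM to 333 and 344 CPM (log2 -1.36, SE 0.12, adjusted p = 3.03e-05 by edgeR). Itga6 fell from 780 and 736 CPM to 319 and 304 CPM (log2 -1.28, SE 0.09, adjusted p = 7.18e-06 by edgeR). Itgb1 fell from 1503 and 1680 CPM to 836 and 842 CPM, and Itgb4 from 484 and 507 CPM to 269 and 254 CPM, both by 0.92 on the log2 scale (SE 0.08 and 0.12, adjusted p = 4.26e-05 and 0.000424 by edgeR). No integrin chain among the members overlapped between media, and neither did any of the 13 other integrin chains tested, so this does not set the members apart. Col17a1 fell from 1691 and 1800 CPM to 1276 and 1263 CPM (log2 -0.46, SE 0.13, adjusted p = 0.0226 by edgeR), and Plec from 258 and 255 CPM to 155 and 151 CPM (log2 -0.74, SE 0.22, adjusted p = 0.0258 by edgeR). Col17a1 (adjusted p = 0.0642 to 0.116) and Plec (adjusted p = 0.092 to 0.117) missed the test when any 1 of the 4 Rxra cKO libraries was left out. Dst stood apart from the others. It rose from 369 and 338 CPM to 475 and 487 CPM (log2 0.45, SE 0.09, adjusted p = 0.00426 by edgeR). With scaling by total counts 6 members fell and 1 rose, without Col17a1 and Plec, the median of all genes moved to 0.13, and the higher genes from 48.4% to 61.9% of calls. In that fit 2646 of all genes were lower and 4290 higher, against 3542 and 3319 with TMM. The suprabasal markers summed to 2884 and 3572 CPM in FBS and to 1233 and 1140 CPM in atRA+PKCi, while Krt5 and Krt14 together went from 20593 and 22541 to 24038 and 23982 CPM. Their part in these differences was not tested.

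**Figure D2:**
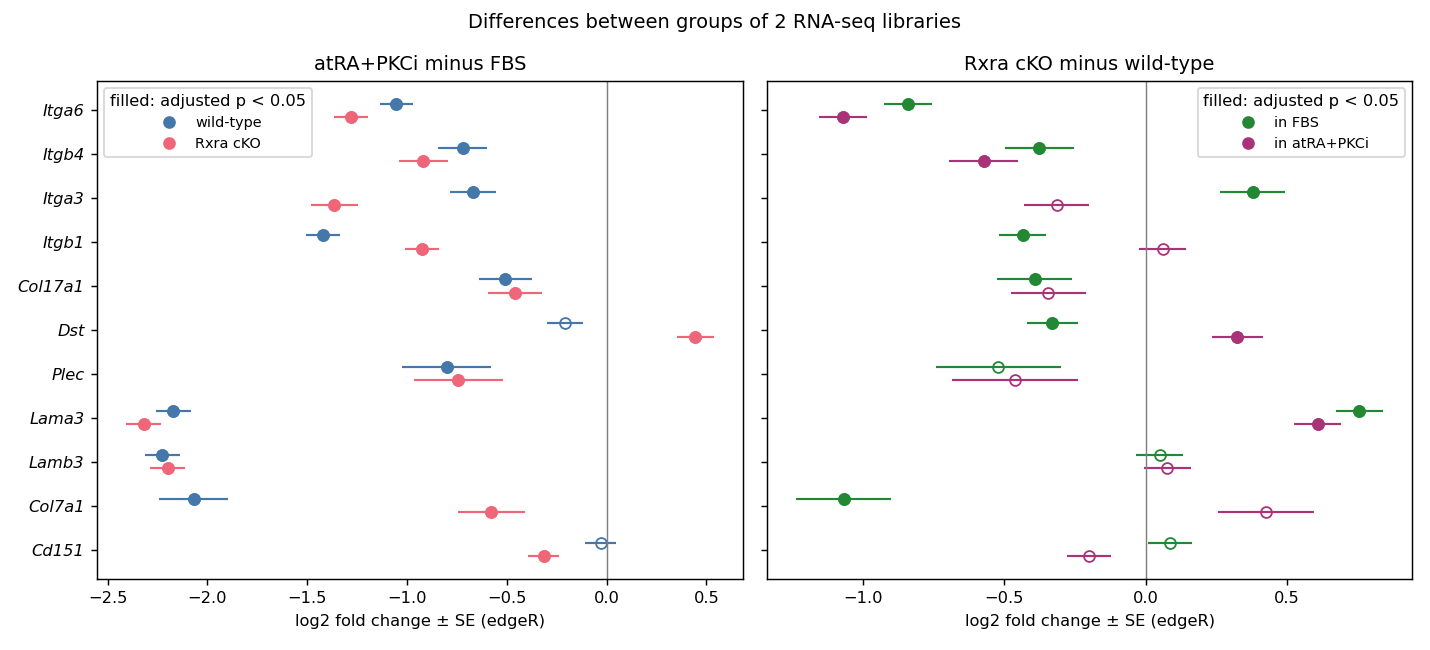
Log2 fold change of the 9 members and of Cd151 and Col7a1 in the 4 pairwise bulk comparisons, with bars of 1 standard error from edgeR, and filled points where the adjusted p was under 0.05. Lama3 and Lamb3 lie between -2.32 and -2.17 for the medium in both genotypes, while for the genotype Lama3 lies above 0 and Itga6 below 0 in both media.

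Genes around the members were described from lists of related genes. Of 7 other laminin chains tested, 3 rose and 1 fell with the change of medium in wild-type cells, where 27.2% of all genes were higher and 26.6% lower, with a median log2 fold change of 0.36, and the higher ones included Lamb1 (101 to 170 CPM, log2 0.76, adjusted p = 0.000106 by edgeR) and Lama5 (102 to 154 CPM, log2 0.58, adjusted p = 0.0316 by edgeR), chains of other laminin trimers. The chain that fell was Lama1 (log2 -3.43, adjusted p = 9.51e-05 by edgeR), which averaged under 5 CPM and was named after its value was seen. Of 13 other integrin chains, 7 were lower and 2 higher, with a median of -0.76. Itga2, a collagen receptor chain, went from 113 to 4.83 CPM (log2 -4.55), Itga5, a fibronectin receptor chain, from 58.5 to 12.5 CPM (log2 -2.23), and Itgb5 from 92.0 to 60.9 CPM (log2 -0.60), whereas Itgb8 went from 0.0569 to 8.06 CPM.

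Of 16 other basement membrane genes tested, 6 rose and 7 fell, Col7a1 among the latter, with a median of -0.23. Col4a5, a chain of collagen IV, rose from 11.9 to 33.5 CPM (log2 1.49), Fras1 from 5.13 to 9.38 CPM (log2 0.87), and the fibulin Fbln2 fell from 680 to 139 CPM (log2 -2.29). Of 18 integrin-linked genes, mostly adaptors to the cytoskeleton but with Cd151 among them, 8 were lower and 2 higher, with a median of -0.22. Fermt2 fell from 5.43 to 0.414 CPM (log2 -3.70) and Actn1, which bundles actin, from 692 to 262 CPM (log2 -1.40), while Tln2 rose from 5.42 to 18.5 CPM (log2 1.77) and Tns3 from 39.0 to 78.3 CPM (log2 1.00). Of 13 proteases that act on the matrix or at the cell surface, 8 were lower and 2 higher, with a median of -0.86. The collagenase Mmp13 went from 2299 to 0.527 CPM and the stromelysin Mmp3 from 522 to 0.111 CPM, against rises of Mmp14 (94.2 to 120 CPM, log2 0.35) and Adam10 (326 to 390 CPM, log2 0.26).

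In Rxra cKO cells the same lists counted 3 higher and 1 lower for the other laminin chains, 4 and 7 for the other integrins, 9 and 4 for the other basement membrane genes, 1 and 10 for the adaptors and 1 and 9 for the proteases, where 20.8% of all genes were higher and 22.2% lower. The medians were 0.45, -0.50, 0.52, -0.33 and -0.43. Fras1 was higher in atRA+PKCi in Rxra cKO cells (log2 2.75, adjusted p = 6.62e-05 by edgeR). Itgb5 was higher in atRA+PKCi there (log2 0.57, adjusted p = 0.00159 by edgeR), opposite to wild-type cells.

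The next comparison set Rxra cKO against wild-type HFSCs in the same medium, which shares its libraries with the comparisons of media. In FBS 2 of 9 members were higher in Rxra cKO, against 22.3% of all genes tested, and 5 were lower, against 20.5%, with a median log2 fold change of -0.38 against 0.02 over all genes. Lama3, at 1406 and 1232 CPM in wild-type and at 2167 and 2289 CPM in Rxra cKO, was 1.69-fold higher (log2 0.76, SE 0.08, adjusted p = 0.000154 by edgeR), whereas Lamb3 overlapped between genotypes (log2 0.05, SE 0.08, adjusted p = 0.665 by edgeR).

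Itga6 was 1.79-fold lower in Rxra cKO FBS than in wild-type FBS (log2 -0.84, SE 0.08, adjusted p = 8.92e-05 by edgeR), and Itgb1 was 1.35-fold lower (log2 -0.43, SE 0.08, adjusted p = 0.00306 by edgeR). Both remained lower whichever library was left out. Itga3 was higher (log2 0.38, adjusted p = 0.0260), and Itgb4 (-0.38, adjusted p = 0.0351), Col17a1 (-0.39, adjusted p = 0.0421) and Dst (-0.33, adjusted p = 0.0178) were lower by edgeR, but these 4 calls depended on which libraries were used. Without wild-type FBS replicate 1, Itgb4 (-0.15, adjusted p = 0.17), Col17a1 (-0.14, adjusted p = 0.227) and Dst (-0.21, adjusted p = 0.0822) missed the test, and without wild-type FBS replicate 2, Itga3 missed it (0.20, adjusted p = 0.0642) while Plec passed (-0.89, adjusted p = 7.10e-05). The calls of Itga3, Itgb4 and Col17a1 also changed with each Rxra cKO library left out in turn. The share of all genes called in these fits is not given here. Col7a1 was lower (log2 -1.07, adjusted p = 0.00111 by edgeR) and Plec was at log2 -0.52 (adjusted p = 0.0916). With scaling by total counts 2 members were higher and 2 lower, the median of all genes moved to 0.15, and the higher genes from 52.1% to 67.6% of calls. In that fit 2214 of all genes were lower and 4621 higher, against 3275 and 3565 with TMM.

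In atRA+PKCi 2 of 9 members were higher in Rxra cKO than in wild-type, against 23.0% of all genes tested, and 2 were lower, against 20.2%, with a median of -0.31 against 0.00 over all genes. Itga6, at 643 and 665 CPM in wild-type and 319 and 304 CPM in Rxra cKO, was 2.10-fold lower (log2 -1.07, SE 0.09, adjusted p = 1.95e-05 by edgeR), and its partner Itgb4 was 1.49-fold lower (log2 -0.57, SE 0.12, adjusted p = 0.00516 by edgeR). Lama3 was 1.52-fold higher (log2 0.61, SE 0.08, adjusted p = 0.000485 by edgeR) and Dst was 1.25-fold higher (log2 0.32, SE 0.09, adjusted p = 0.0186 by edgeR). Itga3 (log2 -0.31, adjusted p = 0.0535), Col17a1 (-0.34, adjusted p = 0.0668), Plec (-0.46, adjusted p = 0.128), Itgb1 (0.06, adjusted p = 0.583) and Lamb3 (0.08, adjusted p = 0.494) did not pass the test. With either wild-type FBS library left out, which is not part of this comparison but shares its fit, Itga3 was at -0.31, Col17a1 at -0.34 and Plec at -0.46. Without Rxra cKO atRA+PKCi replicate 2, Itgb4 was at -0.53 and Dst at 0.31. With each other library of the comparison left out, Dst was at 0.33, 0.35 and 0.37. Which members passed the test depended on the libraries used. The share of all genes called in these fits is not given here.

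The test of the interaction compared the change of medium between genotypes, as the wild-type minus the Rxra cKO log2 fold change. Of the 9 members 1 was positive, against 11.3% of all genes tested, and 2 were negative, against 13.3%. Dst was at -0.65 (SE 0.13, adjusted p = 0.00661 by edgeR), Itgb1 at -0.50 (SE 0.12, adjusted p = 0.0160 by edgeR) and Itga3 at 0.69 (SE 0.16, adjusted p = 0.0148 by edgeR). Itgb1 thus fell more in wild-type than in Rxra cKO cells and Itga3 fell less, so that the partners of α3β1 differed in opposite directions. Without wild-type FBS replicate 1, Itgb4 was at 0.42 and Plec at 0.44, while leaving out wild-type FBS replicate 2 gave Plec the opposite sign (-0.43). Without Rxra cKO atRA+PKCi replicate 1 or 2, Itga3 was at 0.63 or 0.72 and Itgb1 at -0.54 or -0.49. Which members passed the test depended on the libraries used. The share of all genes called in these fits is not given here. Lama3 (0.15, adjusted p = 0.412) and Lamb3 (-0.03, adjusted p = 0.901) did not pass. Of the companions, Col7a1 (-1.49, adjusted p = 0.00245) did, falling more in wild-type cells. With scaling by total counts 1 member was positive and 2 were negative, the median of all genes moved from 0.01 to 0.14, and the positive genes from 46.0% to 62.0% of calls (38.9% with DESeq2). In that fit 1463 of all genes were negative and 2392 positive, against 2117 and 1807 with TMM.

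Ratios of partners within a library, per kilobase of exon, do not depend on the scaling. The ratio of Lama3 to Lamb3 in wild-type cells was 0.825 ± 0.00428 (SD, n = 2) in FBS and 0.857 ± 0.00151 in atRA+PKCi, against 1.35 ± 0.00383 and 1.24 ± 0.00910 in Rxra cKO cells. It thus followed the genotype more than the medium. The ratio of Itga6 to Itgb4 in wild-type cells was 1.66 ± 0.189 in FBS and 1.31 ± 0.0635 in atRA+PKCi, against 1.19 ± 0.0891 and 0.926 ± 0.00421 in Rxra cKO cells. Only in Rxra cKO cells in atRA+PKCi was Itga6 below Itgb4 per kilobase, an order that depends on the exon lengths used (9.025 and 7.015 kilobases). In CPM Itga6 was above Itgb4 in that group as well (312 against 262), so only the change of the ratio between groups can be read. The ratio of Itga3 to Itgb1 went from 0.223 ± 0.0426 to 0.375 ± 0.0252 with the change of medium in wild-type cells and went from 0.392 ± 0.0299 to 0.288 ± 0.00577 in Rxra cKO cells. No test was run on these ratios.

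In skin of the 2 anagen VI mice, 14458 and 13915 of 16521 and 16068 barcodes passed the cell filters, with medians of 8869 and 10594 unique molecular identifiers (UMIs) per cell. After 833 and 307 likely doublets were left out, 27233 cells fell into 27 clusters, drawn without the members. The mice shared 62 barcodes. Although the sort removed cells with CD45, CD31, CD140a and CD117 on their surface, 688 immune-like, 210 endothelial-like and 183 melanocyte-like cells and several fibroblast-like clusters were present. The clusters led by Pgr (2917 and 129 cells) and by Isg15 (484 and 2448 cells) came mostly from 1 mouse each, and no member was highest there. Levels are CPM from UMIs summed per cluster and mouse, given as the mean ± SD of 2 mice, as a description with no test, and are compared between clusters and not between genes. A cluster led by haemoglobin genes, where keratinocyte genes should be missing, serves as the background.

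Col17a1 was highest in clusters of keratinocytes, whereas the α6β4 chains were also found in Schwann-like cells and Itga6 in endothelial-like cells. Col17a1 was highest in a cluster led by Cst6, Krt79 and Defb6 (382 ± 38.0 CPM). This cluster was named suprabasal epidermis-like, but 467 of its cells held at least as many Krt5 and Krt14 as Krt1 and Krt10 UMIs and 133 did not. Col17a1 averaged 457 CPM in the former and 169 CPM in the latter. Next it was at 316 ± 12.8 CPM in the cluster led by Kcnb2 and Chn2 and 314 ± 14.2 CPM in that led by Pthlh and Krt6a. Both were basal keratinocyte and outer root sheath-like and did not differ beyond their spread. Col17a1 was at 12.04 CPM in the haemoglobin-led cluster, where 6.15% of cells held a Col17a1 UMI against 67.0% in the highest cluster, at median depths of 5266 and 8595 UMIs. Levels above the haemoglobin-led and immune-like clusters in both mice were seen in 11 of the clusters for Col17a1 and in 13 for Itgb4.

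Itgb4 was at 108 ± 6.44 CPM in the Kcnb2-led and 102 ± 4.63 CPM in the Pthlh-led cluster, which overlapped, at 89.8 ± 9.81 CPM in the Cst6-led cluster and at 82.2 ± 12.9 CPM in the Schwann-like cluster. Outside keratinocytes this integrin is known from Schwann cells, which also lie on laminin. Itga6 was highest in a cluster of 277 cells led by Il17b, Ctnnd2, Acta2 and Lama1 (519 ± 19.8 CPM), then in the Cst6-led (338 ± 18.6), endothelial-like (311 ± 11.1) and Schwann-like (260 ± 3.74) clusters, each apart from the next. The Il17b-led cluster was left unnamed, since Krt5 was found in 83.0% and Krt14 in 76.9% of its cells although 4 of the 6 mural and dermal sheath markers were detected there. Itgb4 in it was at 21.2 CPM, well below the Itgb4 level of the basal clusters.

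Itga3 was at 131 ± 3.96 CPM in the Kcnb2-led cluster, whose top genes include Lgr5, and next at 80.8 ± 1.92 CPM in an unnamed cluster led by Grm7, Slc39a10 and Lgr5. These neighbours were apart in both mice. Itgb1 was broad instead, from 70.4 CPM in the inner root sheath-like cluster led by Krt71 to 830 ± 28.3 CPM in the mural and dermal sheath-like cluster led by Rgs5, and was at 313 CPM in the Kcnb2-led cluster.

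The laminin chains did not peak in the same cells. Lama3 was highest in an unnamed cluster of 1160 cells led by Gpnmb, Tchh and Foxq1 (203 ± 57.0 CPM, 163 and 244 CPM in the mice), where Lamb3 was at 3.50 ± 1.52 CPM. Lamb3 was highest in the Il17b-led cluster, at 63.6 ± 4.76 CPM, where Lama3 came second at 144 ± 6.82 CPM. Lamb3 was next at 56.1 ± 5.73 CPM in the Cst6-led cluster and 43.3 ± 4.12 CPM in the Pthlh-led cluster, each level apart from the one before, and was at 1.35 CPM in the haemoglobin-led cluster. Lama3 was also at 89.4 CPM in the endothelial-like cluster, where Lamb3 was at 0.537 CPM. In the Il17b-led, Kcnb2-led, Pthlh-led and Cst6-led clusters both Lama3 and Lamb3 were above their levels in the haemoglobin-led cluster.

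The plakins followed cells of other kinds as well. Dst was highest in the melanocyte-like (593 ± 36.5 CPM) and endothelial-like (558 ± 20.4 CPM) clusters, which overlapped, then in the Schwann-like cluster (470 ± 52.3 CPM), and was at 403 to 431 CPM in the Kcnb2-led and Cst6-led clusters. It was lowest in the hair shaft-like cluster (15.8 CPM) and the Gpnmb-led cluster (21.1 CPM). Since Dst gives neuronal and muscle forms besides the epithelial one, its UMIs do not separate BP230. Plec ran from 26.1 CPM in the haemoglobin-led cluster to 181 ± 16.8 CPM in the Pthlh-led cluster, and its first 4 clusters overlapped in steps. With 27 clusters each member has 26 neighbouring pairs, of which 10 were apart in both mice for Itga6, 8 for Col17a1, 7 for Itga3, 6 for Lamb3, 5 each for Itgb1 and Dst, 4 for Lama3 and 3 each for Itgb4 and Plec.

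**Figure D3:**
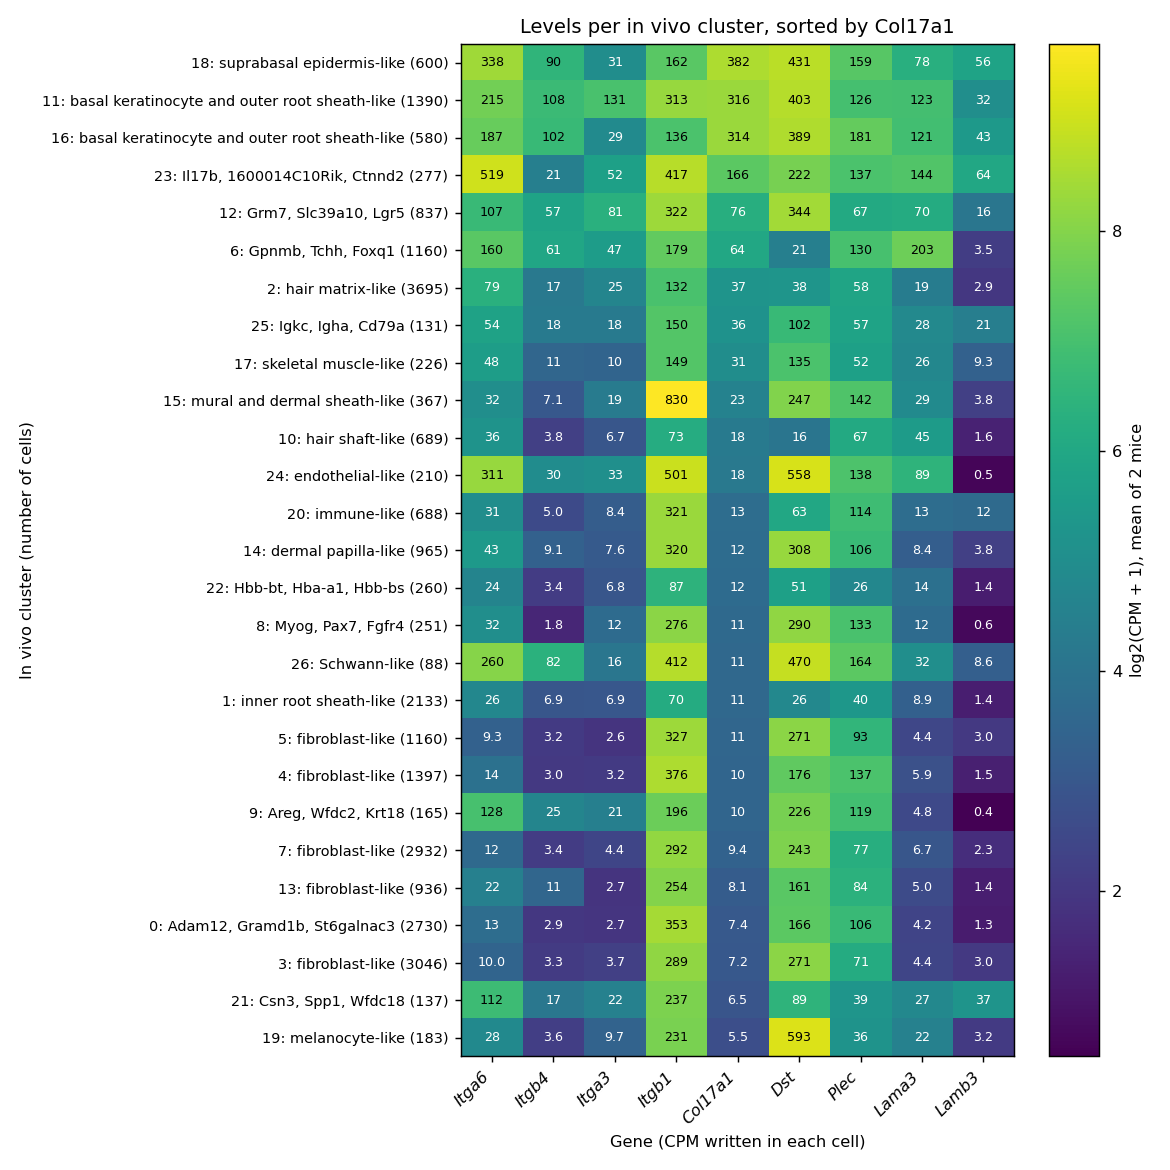
Mean CPM over 2 mice of the 9 members (columns) in the 27 in vivo clusters of the anagen VI skin (rows, sorted by Col17a1), written in each field and coloured by log2(CPM + 1), with each cluster's name, or its leading genes where it was left unnamed, and its number of cells. Col17a1 reaches 382 CPM in the Cst6-led cluster, and Lama3 in the Gpnmb-led cluster stands at 203 CPM beside Lamb3 at 3.50 CPM.

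At a clustering resolution of 1.0 in place of 0.5, a cluster of 301 cells led by Kcnb2, Chn2 and Fhod3 was highest for Itga3 (173 CPM), Itgb4 (141 CPM), Lama3 (277 CPM) and Dst (726 CPM), all in 1 basal keratinocyte and outer root sheath-like population. Plec was then highest in an unnamed cluster of 376 cells led by Adamts18 and Col11a1 (219 CPM). The highest clusters of Lama3, Dst and Plec thus depended on how finely the cells were divided, and those of Dst, Plec and Itga3 also on the cell filter.

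The Cst6-led cluster held basal as well as suprabasal cells, so it was divided, after its values were seen, by whether the UMIs of Krt5 and Krt14 were at least as many as those of Krt1 and Krt10. The basal side held 467 of its 600 cells and the suprabasal side 133, with 52 cells within 2-fold of the limit. Every member was higher on the basal side in both mice. Lamb3 was at 68.1 and 74.0 CPM on the basal side and at 6.25 and 21.2 CPM on the suprabasal side, a ratio of means of 5.17. Itga3 had a ratio of 4.43, Itgb4 of 3.94, Itgb1 of 3.04 and Itga6 of 2.99. Col17a1 was at 424 and 489 CPM against 156 and 182 CPM, a ratio of 2.70. Dst (2.34) and Lama3 (2.10) differed less, and Plec, at 157 and 173 CPM against 144 and 140 CPM, least of all (1.17). The median depth was 7049 and 10056 UMIs per cell on the basal side against 8563 and 12221 UMIs on the suprabasal side. Since the keratins that divided the cells were measured in the same cells, no test was made.

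**Figure D4:**
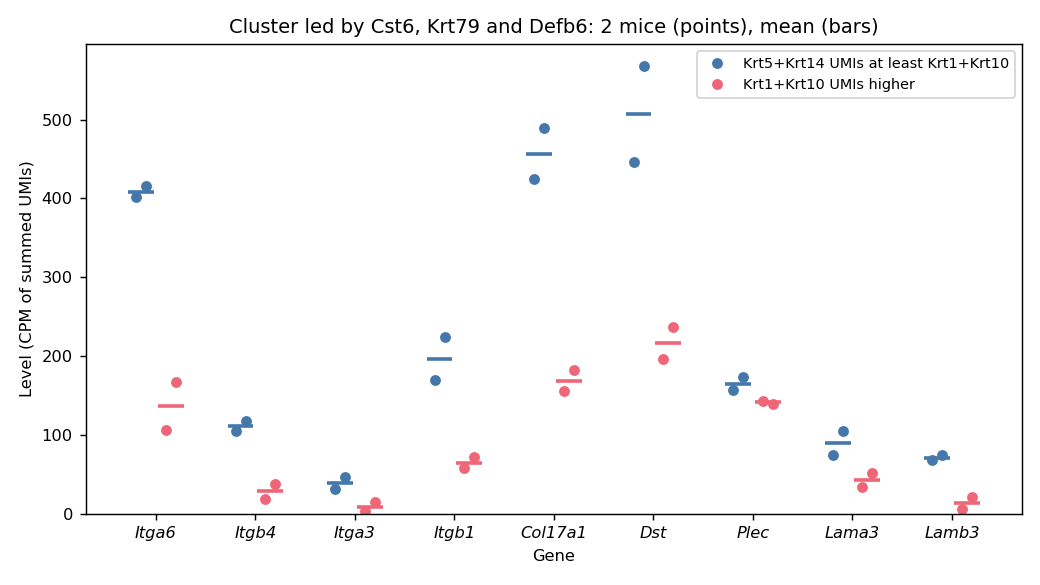
CPM of the 9 members in the Cst6-led in vivo cluster, divided into cells with at least as many Krt5 and Krt14 UMIs as Krt1 and Krt10 UMIs (basal side) and the rest, with a point for each of the 2 mice and a bar at their mean on a linear axis from 0. All members lie higher on the basal side, by 5.17 times for Lamb3 and by 1.17 times for Plec.

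Genes with levels most like a member over the 27 clusters were found by Pearson's r of log2(CPM + 1) among 8367 genes. For Itgb4 these were its partner Itga6 (r = 0.86), Itga3 (0.80), Tns4 (0.79), Fermt1 (0.79), which encodes the integrin activator kindlin-1, and Enpp1 (0.79). For Col17a1 they were the keratins Krt14 (0.93), Krt5 (0.91), Krt17 (0.91) and Krt15 (0.90), and Vsnl1 (0.90). For Lamb3 they were Stard5 (0.81), Scrg1 (0.76), Adgrl3 (0.75), Cbr2 (0.75) and Pycard (0.74). Among the members themselves Lama3 and Lamb3 had r = 0.60, Dst and Itgb1 0.64, and Itgb1 with Itgb4 0.02. The clusters come from the same 2 libraries and share their free RNA, so these are descriptions.

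The cultured HFSCs gave few cells. Of 449 and 208 barcodes, 262 and 94 passed the filters and 300 carried a single hashtag, none of them from FBS. The cells of mouse 1 and mouse 2 numbered 5 and 10 in B-27, 5 and 6 with R-spondin (Rspo), 113 and 13 with BMP2/4, 92 and 27 with Rspo+BMP2/4, and 5 and 21 with the retinoic acid receptor inhibitor added (Rspo+BMP2/4+RARi). All but B-27 also held atRA+PKCi, and atRA+PKCi alone had 2 and 1 cells and was not compared. Each other condition and mouse gave 96141 to 3696276 UMIs, and all 9 members passed the filter among 6265 genes tested.

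Col17a1 was at 333 and 282 CPM in B-27, 146 and 213 CPM with Rspo, 418 and 437 CPM with BMP2/4, 348 and 391 CPM with Rspo+BMP2/4 and 364 and 569 CPM with Rspo+BMP2/4+RARi. Itgb4 was at 127 and 72.8 CPM in B-27, 21.9 and 82.6 CPM with Rspo, 228 and 180 CPM with BMP2/4, 181 and 309 CPM with Rspo+BMP2/4 and 229 and 252 CPM with Rspo+BMP2/4+RARi. Lamb3 was at 68.8 and 59.2 CPM in B-27, 29.2 and 20.6 CPM with Rspo, 171 and 157 CPM with BMP2/4, 119 and 249 CPM with Rspo+BMP2/4 and 125 and 214 CPM with Rspo+BMP2/4+RARi. For these 3 genes and for Itgb1 both mice were higher in every condition with BMP2/4 than in B-27 or with Rspo. For the other members the values overlapped. B-27 and Rspo held only 5 to 10 cells per mouse. The share of all genes that separated in this way is not given here, so this does not set these genes apart. Lama3 ranged from 124 to 684 CPM and Itgb1 from 131 to 518 CPM over the 5 conditions, and Itga3 from 9.10 CPM (B-27, mouse 2) to 175 CPM (Rspo, mouse 1).

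BMP2/4 was compared with B-27 on the UMI sums by edgeR's quasi-likelihood test, and a call needed an adjusted p below 0.01 with a log2 fold change beyond 1 in size. The comparison also covers atRA+PKCi, which B-27 did not hold. None of the 9 members was called, against 0.431% of all genes higher and 5.28% lower. All 9 had a positive log2 fold change, from 0.19 (Itga6) to 1.70 (Itga3), with a median of 0.75 against 0.01 over all genes and SEs of 0.48 to 0.61. The largest were Itga3 at 1.70 (adjusted p = 0.0823), Lamb3 at 1.48 (adjusted p = 0.0847) and Itgb4 at 1.18 (adjusted p = 0.202), the 3 members with an unadjusted p under 0.05, and DESeq2 called none. Itga6 turned to -0.03 without B-27 replicate 2. With cells of up to 20% mitochondrial UMIs, Lamb3 was called (log2 1.93, adjusted p = 0.0035). Of the related genes, the integrin chain Itgb6 was called higher (log2 2.39, adjusted p = 0.00739) and the protease Tll1 lower (log2 -4.39, adjusted p = 0.000201), both by edgeR. A simulation changed 200 genes drawn at random from those tested, at any level, and recovered 5% of those changed 4-fold under this rule. Power at the members' own levels was not simulated. The absence of calls therefore does not show that the members were unchanged.

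Adding Rspo to BMP2/4 called 0 of the 9 members, against 0% of all genes in either direction, with log2 fold changes from -0.90 (Dst) to 0.37 (Itga6) and SEs of 0.44 to 0.54. Adding the RAR inhibitor to Rspo+BMP2/4 also called 0, against 0% of all genes, with values from -1.14 (Itga3) to 0.96 (Dst) and SEs of 0.45 to 0.55. By edgeR, 0 members had an unadjusted p under 0.05 in either comparison, and DESeq2 called 0 as well. No simulation was run for these comparisons, so the size of change they could detect is not known.

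**Figure D5:**
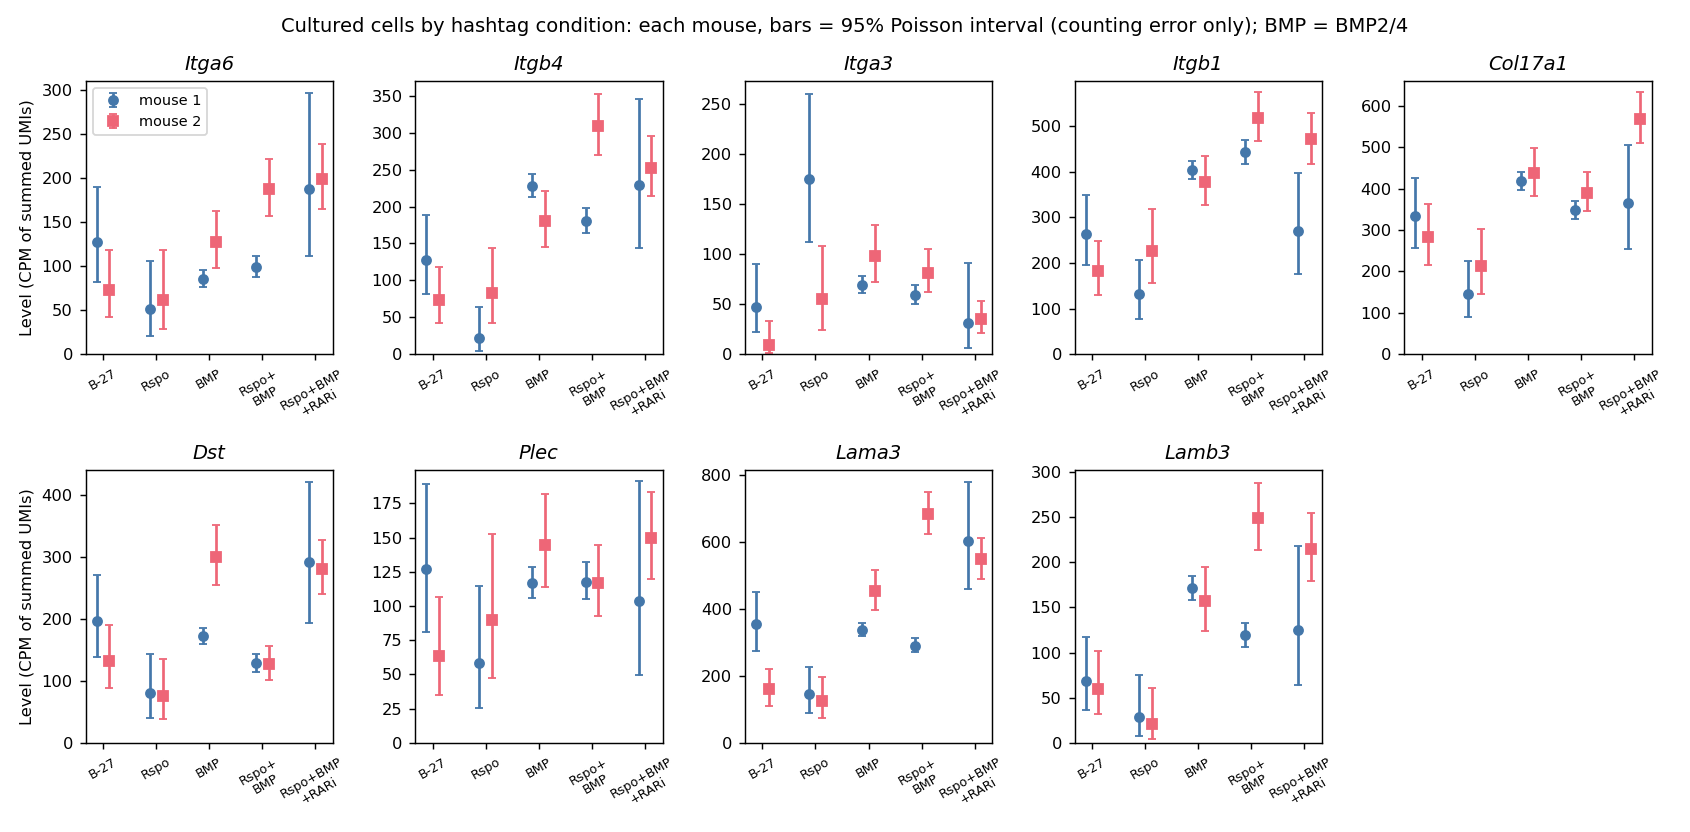
CPM of the 9 members in cultured HFSCs by condition, from UMI sums, with a point for each of the 2 mice and bars of the 95% Poisson interval, which covers counting error only, for the conditions with at least 5 cells in each mouse. Col17a1 runs from 146 CPM with Rspo to 569 CPM with Rspo+BMP2/4+RARi, and for mouse 1 the intervals are wider with Rspo+BMP2/4+RARi (5 cells) than with BMP2/4 (113 cells).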

How the data were processed

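RNA-seq libraries were quantified by the authors with Salmon 1.4.0 on mm10 transcripts and summed to genes with tximport; the deposited estimated counts were rounded here to whole numbers. The authors' normalized counts, a deposited signal per library from DESeq2, served in alternatives only. Single-cell UMI counts were deposited by the authors as Cell Ranger made them (7.0.1 per the labels), before removal of ambient RNA and doublets. ATAC-seq and CUT&RUN samples were not analysed here. The members and gene lists were chosen with earlier results of these data known.

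Bulk counts were tested with edgeR 4.0.16 (R 4.3.3, filterByExpr, TMM, glmQLFit and glmQLFTest, Benjamini-Hochberg over 15965 genes, adjusted p under 0.05) in 1 fit over 8 libraries. Library totals were 25150265 to 35879777, and replicates differed beyond counting error. The labels give mice but not separate cultures, so p-values measure the spread between these samples. By the labels a replicate number stands for the same mouse in both media of a genotype. Deviations of same-numbered libraries correlated at 0.135 for wild-type and at -0.000821 for Rxra cKO mice. Single cells were kept with at least 500 genes, 1000 UMIs and under 10% mitochondrial UMIs, freed of Scrublet doublets, and clustered in scanpy 1.11.5 (2000 variable genes without the members, 30 principal components, resolution 0.5). A cluster was named from marker lists with at least 3 markers detected. A name from another cell type was withheld where at least 75% of cells held Krt5 and Krt14, a rule added after the data were seen. Hashtags were called with Seurat 5.3.0, and UMI sums per mouse and condition were tested by edgeR with DESeq2 1.42.0 as an alternative. Positions follow GRCm38 with GENCODE release 21.

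All 9 members were named, with Cd151 and Col7a1; 1 further gene of the rule is not reported here and was left out of the lists. From each list of related genes up to 4 called genes were named, those at either end of the log2 fold changes for the medium in wild-type cells (2 each), among genes averaging at least 5 CPM. On simulated data for the medium comparison in wild-type cells (15493 genes), edgeR recovered 70.4% of genes changed 2-fold and 88.8% of those changed 4-fold, with 14 false calls. For BMP2/4 against B-27 (6265 genes) it recovered 0% and 5% at the stricter rule. Alternatives were other scaling, filters, thresholds and tools, each library left out, a mouse block, other cell filters and other clustering.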

Additional observations from a re-analysis of the deposited data

Results flagged for a closer look

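4 genes responded to the change of medium by different amounts in wild-type and Rxra cKO HFSCs, by edgeR's test of the difference itself. As the wild-type minus the Rxra cKO log2 fold change, Itga3 was at 0.69, Itgb1 at -0.50 and Dst at -0.65 among the members, and their companion Col7a1 was at -1.49. Of all genes tested, 11.3% passed this test with a positive value and 13.3% with a negative one, so such differences were common. Dst was at log2 -0.21 in wild-type (adjusted p = 0.0824) and 0.45 in Rxra cKO (adjusted p = 0.00426), and with scaling by total counts at 0.030 and 0.56, so that its sign in wild-type cells depended on the scaling while its difference between genotypes passed under both (-0.53, adjusted p = 0.0308 with total counts). Itga3 and Itgb1 did not pass when either Rxra cKO atRA+PKCi library was left out, nor Itga3 without Rxra cKO FBS replicate 1 (0.65, adjusted p = 0.0513). The suprabasal markers also changed by different amounts between genotypes (5878 and 6289 to 377 and 382 CPM, against 2884 and 3572 to 1233 and 1140 CPM). They fell more in wild-type cells, where Itgb1 and Col7a1 fell more too but Itga3 fell less. Krt5 and Krt14 together went from 32857 and 34301 to 14980 and 15121 CPM in wild-type cells, and from 20593 and 22541 to 24038 and 23982 CPM in Rxra cKO cells. The part of these markers was not tested.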

How the results depend on the processing

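Of 77 counts of members called in bulk RNA-seq under alternatives, 57 stayed within 1.5 times the reported count. The share of all genes called in each setting is not given here, so these counts show only how the calls shifted and not whether the members differ from other genes. At the stricter limits of adjusted p 0.01 and a log2 fold change of 1 in size, 4 members were called for the medium in wild-type cells, 4 for the medium in Rxra cKO cells, 0 for the genotype in FBS, 1 for the genotype in atRA+PKCi and 0 for the interaction. For the genotype in FBS, scaling by total counts gave 4 and a fit of only the 4 libraries compared gave 3. For the genotype in atRA+PKCi, that fit gave 7, as did the table without a filter on low counts. Leaving out each library in turn gave 7 to 9 and 7 to 9 members for the medium in the 2 genotypes, 3 to 7 and 2 to 7 for the genotype in the 2 media, and 1 to 5 for the interaction. Total counts turned the log2 value of Dst for the medium in wild-type cells to 0.030, and of the interaction to 0.075 for Col17a1, 0.098 for Lamb3 and 0.061 for Plec. With each library left out these interactions ranged from -0.26 to 0.20, -0.13 to 0.076 and -0.43 to 0.44, with the highest without wild-type FBS replicate 1, and the genotype value of Lamb3 in FBS from -0.048 (without wild-type FBS replicate 2) to 0.15. The cause was not tested. With the replicate block by mouse the interaction of Plec was 0.00401 (adjusted p = 1 by edgeR), and the block left the counts at 8, 9 and 3 for the medium in each genotype and the interaction, and at 0 in cultured cells, so it changed no other call count.

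In cultured cells 1 member, Lamb3, was called for BMP2/4 against B-27 with up to 20% mitochondrial UMIs. Leaving out each mouse of a condition in turn gave 0 to 0 in all 3 comparisons, with Itga6 at -0.031 to 0.55 for BMP2/4 against B-27 (lowest without B-27 replicate 2) and at -0.030 to 0.68 for Rspo+BMP2/4 against BMP2/4 (lowest without Rspo+BMP2/4 replicate 2). The stricter cell filter left too few conditions and was not run there. The few cells in B-27 limit what its comparison can show. In skin, the highest level of a member over clusters moved by more than the spread between mice in 14 of 27 values under other clustering or cell filters, and did not for Col17a1 and Lamb3.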
